A study of Mus musculus with 37 samples.

Results

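*Aqp4*, *Gfap*, *S100b*, *Slc1a2*, *Slc1a3*, *Glul*, *Gja1*, *Gjb6* and *Aldoc*, 9 genes used as markers of astrocytes, were followed in the hippocampus of 37 mice. Every probe with 1 of these gene symbols in the platform annotation was taken, which gave 10 of the 24620 probes of the array (*Aldoc* has 2 probes). The mice were females of the CSS15F2 population, 3 to 4 months old, an intercross from a chromosome substitution strain in which the C57BL/6J host carries chromosome 15 of A/J, so that only chromosome 15 segregates. Tissue punches from the left hippocampus were pooled within each mouse, and each mouse had 1 Illumina MouseRef-8 V1.1 array. The labels divide the mice into no treatment or genotype groups. They form 1 group here, and the spread over mice is the only error. Of the member genes only *Slc1a3* lies on chromosome 15.

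Astrocytes clear glutamate and potassium from around synapses, supply neurons with metabolites and cover blood vessels with their endfeet. Glutamate enters through the transporters encoded by *Slc1a2* (GLT-1) and *Slc1a3* (GLAST), and glutamine synthetase, encoded by *Glul*, turns it into glutamine, which returns to neurons. Gap junctions of connexin 43 (*Gja1*) and connexin 30 (*Gjb6*) couple astrocytes into a network, the water channel aquaporin 4 (*Aqp4*) sits at the endfeet, and *Gfap* encodes their intermediate filament. *Aldoc* encodes the aldolase of brain glycolysis that marks astrocytes, and *S100b* a calcium-binding protein made by astrocytes and by some oligodendrocyte cells.

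The promoters of 3 pairs whose values are set beside each other in the results, *Aldoc* and *Slc1a3*, *Glul* and *S100b*, and the connexin genes *Gja1* and *Gjb6*, are printed so that each can be read beside its partner. Each sequence is the 250 bases before the start of the gene in RefSeq (build GRCm38.p6), 5′ to 3′ on the strand of the gene. Capitals mark matches on either strand to any of 5 motifs of general or glial factors. The TATA box was searched as TATAAA and the GC box, bound by Sp1, as GGGCGG. The half-site of nuclear factor I was searched as TTGGCA, the site of STAT factors as TTCNNNGAA, and the site of the AP-1 factors Fos and Jun as TGANTCA.
Aldoc promoter, chr11:78322823-78323072, plus strand: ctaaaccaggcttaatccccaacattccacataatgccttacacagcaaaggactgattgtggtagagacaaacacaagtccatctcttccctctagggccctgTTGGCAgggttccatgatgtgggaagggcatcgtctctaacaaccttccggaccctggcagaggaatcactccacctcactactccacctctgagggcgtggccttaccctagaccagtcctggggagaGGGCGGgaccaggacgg
Slc1a3 promoter, chr15:8710808-8711057, minus strand: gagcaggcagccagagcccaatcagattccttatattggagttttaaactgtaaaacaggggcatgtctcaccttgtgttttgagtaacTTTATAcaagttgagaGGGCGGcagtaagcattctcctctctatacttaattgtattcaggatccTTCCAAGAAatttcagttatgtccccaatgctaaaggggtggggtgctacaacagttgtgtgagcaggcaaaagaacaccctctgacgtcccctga
Glul promoter, chr1:153899679-153899928, plus strand: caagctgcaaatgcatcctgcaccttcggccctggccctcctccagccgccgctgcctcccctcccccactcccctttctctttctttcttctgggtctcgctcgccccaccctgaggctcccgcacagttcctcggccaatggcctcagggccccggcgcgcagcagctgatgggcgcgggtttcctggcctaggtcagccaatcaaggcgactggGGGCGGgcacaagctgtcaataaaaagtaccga
S100b promoter, chr10:76253586-76253835, plus strand: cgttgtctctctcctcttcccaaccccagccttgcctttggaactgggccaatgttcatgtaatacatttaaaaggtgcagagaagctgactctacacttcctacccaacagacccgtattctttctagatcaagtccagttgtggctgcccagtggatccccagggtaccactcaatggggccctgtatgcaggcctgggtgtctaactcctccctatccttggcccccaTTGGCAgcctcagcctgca
Gja1 promoter, chr10:56377050-56377299, plus strand: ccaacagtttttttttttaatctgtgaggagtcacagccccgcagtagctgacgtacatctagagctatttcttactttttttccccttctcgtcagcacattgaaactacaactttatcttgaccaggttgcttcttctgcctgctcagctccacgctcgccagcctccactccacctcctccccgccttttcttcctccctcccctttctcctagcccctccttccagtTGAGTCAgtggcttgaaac
Gjb6 promoter, chr14:57133612-57133861, minus strand: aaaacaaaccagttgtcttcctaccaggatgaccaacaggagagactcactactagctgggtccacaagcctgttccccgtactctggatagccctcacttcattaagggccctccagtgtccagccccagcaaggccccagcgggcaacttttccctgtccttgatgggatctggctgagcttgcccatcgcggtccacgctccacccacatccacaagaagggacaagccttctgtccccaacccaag
*Aldoc* (the first of its 2 starts) held a GC box and an NFI half-site, and *Slc1a3* a TATA box, a GC box and a STAT match. *Glul* held a GC box and *S100b* an NFI half-site. *Gja1* held an AP-1 match, and *Gjb6* held none of the 5 motifs. Over the 9 starts of 8 member genes read, the GC box stood in 3, the NFI half-site and the STAT match in 2 each, and the TATA box and the AP-1 match in 1 each. Of all 32851 promoters of the same length, 32.7% held the GC box, 12.4% the TATA box, 12.3% the NFI half-site, 7.02% the STAT match and 6.75% the AP-1 match. A match says only that these letters stand in the window.

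There were 13 BeadChips, holding between 1 and 6 of the arrays, and their numbering splits them into set A (26 arrays) and set B (11 arrays). Between 5281 and 10724 probes were detected per array (detection *p*-value under 0.01, median 8704), and 6 arrays had fewer than 7000. Expression is given as quantile normalized log2 intensity, and tests ran over the 8541 probes detected on at least 19 arrays. In this bulk tissue, fewer astrocytes and less RNA per astrocyte cannot be told apart.

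Detection of the astrocyte genes was uneven. *Aqp4*, *Slc1a3*, *Gja1*, *Gjb6* and the brighter *Aldoc* probe were detected on all 37 arrays, and the dimmer *Aldoc* probe on 35. *Gfap* was detected on 25 arrays, *Glul* on 22 and *S100b* on 21. *Slc1a2* was detected on 3 arrays. So 9 of the 10 probes passed the filter of 19 arrays, and *Slc1a2*, although its transporter is a defining marker of astrocytes, was not well above background on the other arrays. In the deposited signals, before any normalization between arrays, *Aldoc* ran from 2398 through a median of 9167 to 14519, *Gja1* from 2524 (median 6392) to 13394, and *Slc1a3* from 1357 (median 5530) to 9765. *Gjb6* ran from 621 (median 2046) to 4088 and *Aqp4* from 56.8 (median 644) to 3231. The dim members reached a highest signal of 237 (*Gfap*), 198 (*Glul*), 75.8 (*S100b*) and 55.6 (*Slc1a2*), and the lowest signals of *Gfap*, *Glul* and *Slc1a2* were negative after background correction (-12.4, -3.9 and -9.9). The probe of each gene is its own scale, so levels of different genes were not set against each other.

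**Figure D1:**
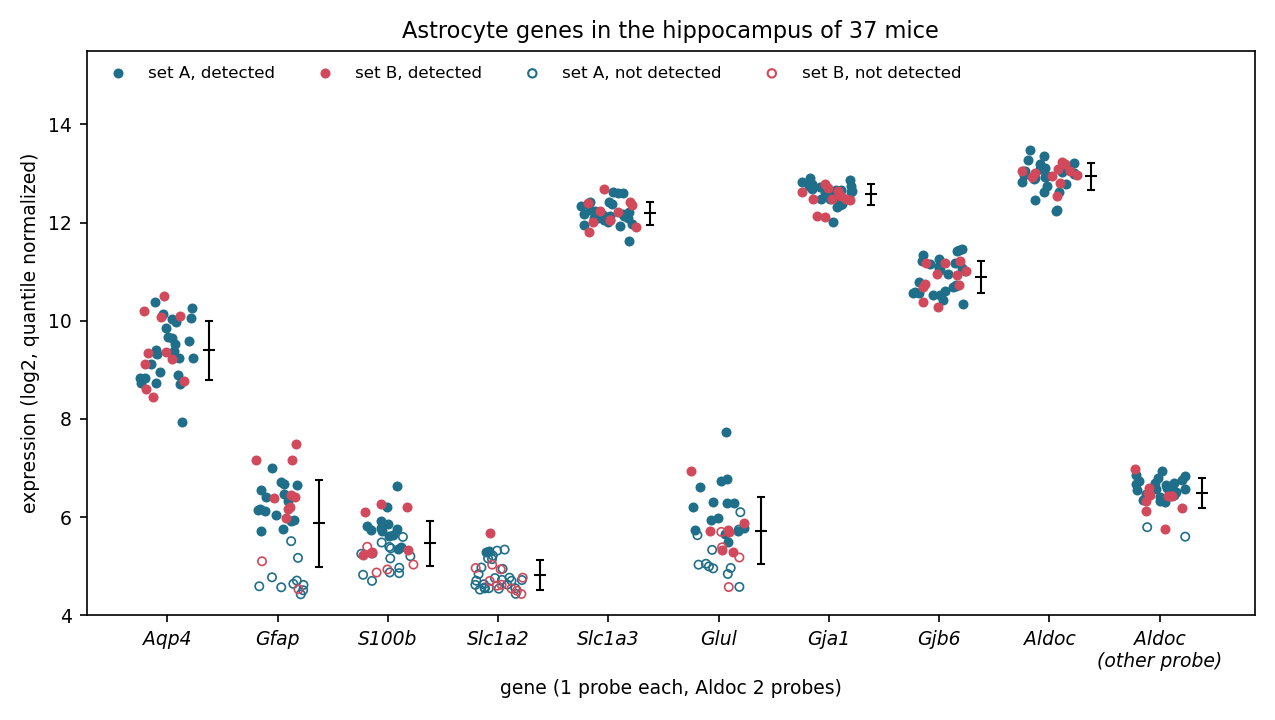
Expression (log2, quantile normalized) of the 10 probes in each of the 37 mice, with filled points where the probe was detected and open points where it was not, coloured by chip set. The black marks give mean and SD over all mice. *Gja1*, *Slc1a3* and the brighter *Aldoc* probe are detected in every mouse and lie within narrow bands, whereas most *Slc1a2* points are open.

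Of the members detected in every mouse, *Gja1*, *Slc1a3* and *Aldoc* varied least. *Gja1* ranged from 12.01 through a median of 12.62 to 12.92, with a mean of 12.57 ± 0.21 (SD, n = 37 mice), and only 2.41% of the detected probes had a smaller SD. *Slc1a3* ranged from 11.62 (median 12.15) to 12.69, with a mean of 12.19 ± 0.23 (SD), and 5.28% of the detected probes varied less. *Aldoc* ranged from 12.23 (median 12.99) to 13.48, with a mean of 12.94 ± 0.27 (SD), and 11.5% varied less. The highest mouse thus exceeded the lowest 1.88-fold for *Gja1*, 2.09-fold for *Slc1a3* and 2.37-fold for *Aldoc*. *Gjb6*, the second astrocyte connexin, ranged from 10.28 (median 10.94) to 11.46, with a mean of 10.89 ± 0.33 (SD).

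*Aqp4* varied more than its fellow members on all arrays. It ranged from 7.94 through a median of 9.35 to 10.51, with a mean of 9.39 ± 0.61 (SD, n = 37 mice), a 5.94-fold span, and 80.9% of the detected probes had a smaller SD. The lowest value came from mouse 86, whose array had the fewest detected probes of all (5281). *Gfap* had the widest relative spread, with a mean of 5.87 ± 0.88 (SD) a range from 4.43 (median 6.12) to 7.49, and 95.4% of the detected probes below it in SD. *Glul* ranged from 4.58 (median 5.71) to 7.73, with a mean of 5.73 ± 0.69 (SD), and *S100b* from 4.70 (median 5.38) to 6.63, with a mean of 5.47 ± 0.46 (SD). *Slc1a2* ranged from 4.44 (median 4.72) to 5.67, mostly below detection. Mouse 151, the only mouse on chip 6, had the highest *Glul*, *S100b* and *Gjb6* of all mice, so several results are given with and without it. The marker lists on *Gjb6* are given only with it.

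A Gaussian mixture split the *Gfap* values into a lower and a higher range (gain in the Bayesian information criterion of 11.8). A lower group of 9 mice lay between 4.43 and 4.77, and a higher group of 28 mice between 5.10 and 7.49. *Gfap* was detected in 0 of the 9 and in 25 of the 28. The 9 arrays had 5281 to 8704 detected probes (median 6821), against 7665 to 10724 (median 8981) for the 28, and all 6 arrays with fewer than 7000 detected probes were among the 9. Without those 6 arrays, without quantile normalization or in the normalized values of the authors, no groups were found. For *Gfap*, relations to other measures are therefore given within the 28 mice only. The other 8 genes showed no groups by this rule.

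The number of detected probes on the array moved with several members. Of the 8541 probes, 67% changed with it (limma slope, Benjamini-Hochberg adjusted over all probes), and of the 7 members tested without *Gfap* 4 did. *Aqp4* rose by 0.24 ± 0.06 (SE, log2) per 1000 detected probes (adjusted p = 0.00073), *Aldoc* by 0.12 ± 0.03 (adjusted p = 0.00021) and *Slc1a3* by 0.08 ± 0.03 (adjusted p = 0.0073). *Gjb6* went the other way, with a slope of -0.09 ± 0.04 (adjusted p = 0.035). Without mouse 151 that slope was -0.08 ± 0.04 and did not pass (adjusted p = 0.053). *Gja1*, *Glul* and *S100b* did not pass, with slopes of 0.04, 0.03 and -0.05 (adjusted p = 0.20, 0.73 and 0.41). Members thus passed in no larger share than probes in general. Without the 6 arrays below 7000 detected probes none of these 4 passed, although the slopes of *Aqp4* (0.21 ± 0.10, adjusted p = 0.061), *Slc1a3* (0.09 ± 0.04, adjusted p = 0.085) and *Gjb6* (-0.08 ± 0.06, adjusted p = 0.29) stayed near those over all arrays. That of *Aldoc* was 0.06 ± 0.04 (adjusted p = 0.20). There *S100b* passed, with a slope of -0.21 ± 0.08 (adjusted p = 0.019), 1 of 7 where 49.4% of all probes passed. Within the 28 mice of the higher *Gfap* group, the *Gfap* slope was 0.18 ± 0.11 (adjusted p = 0.18). The part of the number of detected probes in the members' levels was not tested further. The S100 genes other than *S100b* had falling slopes that passed over 37 arrays in all 5 tested, where 29.4% of all probes fell, *S100a6*, *S100a1*, *S100a13* and *S100a16* among them.

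**Figure D2:**
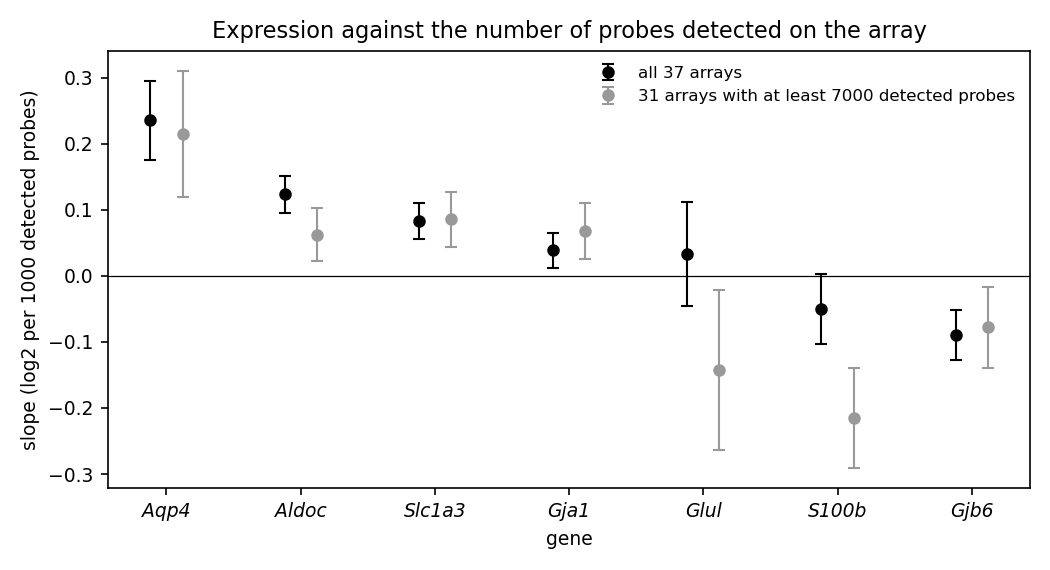
Slope of expression per 1000 detected probes (log2, points with SE) for the 7 members tested without *Gfap*, over all 37 arrays (black) and over the 31 arrays with at least 7000 detected probes (grey). *Aqp4* has the steepest positive slope in both (0.24 and 0.21), and *S100b* moves from -0.05 to -0.21 when the 6 arrays are left out.

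Between BeadChips, 0.843% of the probes differed (72 of 8541, limma F-test over the 13 chips), and of the 8 members tested only *Glul* did (F = 6.47, adjusted p = 0.017). The enzyme was detected on every array of 7 chips (19 arrays) and on no array of 4 chips (9 arrays), with both outcomes on the remaining 2. Among chips with at least 2 arrays, the chip means of *Glul* ran from 4.88 (chip 11) to 6.69 (chip 1). On chip 1 the mice had 6.62 and 6.77, and on chips 2, 9 and 11 the highest mouse had 5.33. Chip 10, also without a detected array, had 5.38 and 5.70. These lie within the range of chip 12 (5.29 to 5.75), where all 4 arrays were detected. The lone mouse 151 on chip 6 had 7.73. Without mouse 151 the difference did not pass (F = 4.79, adjusted p = 0.081), and 0.222% of the probes were called (19 probes). The other 7 members had F between 0.87 and 2.5 (adjusted p of 0.22 or more). Mice were not balanced over chips by any label, so chip and mouse cannot be told apart. Between set B and set A 0% of the probes differed in limma (0 of 8541, 808 at an unadjusted p under 0.05), members included. The mean difference of set B minus set A was -0.12 for *Gja1*, 0.05 for *Aldoc*, 0.06 for *Aqp4*, 0.01 for *Slc1a3*, -0.07 for *Gjb6*, -0.03 for *S100b* and -0.20 for *Glul*. It was highest for *Gfap*, at 0.58 ± 0.29 (SE, adjusted p = 0.51 in limma). That difference mixes the 2 ranges of *Gfap*, because the lower group of 9 mice held 8 arrays of set A and 1 of set B.

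**Figure D3:**
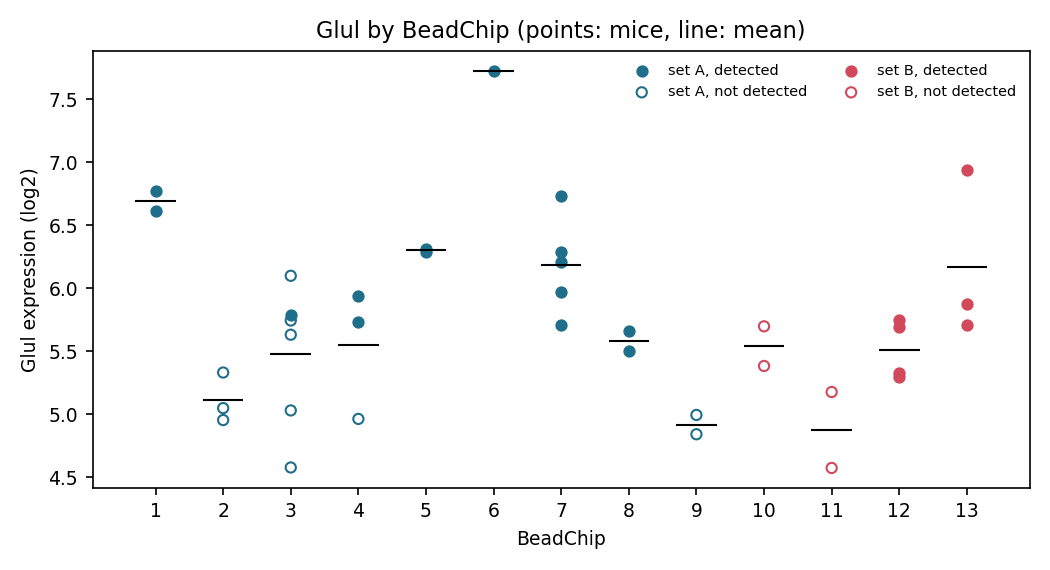
*Glul* expression (log2) by BeadChip, with 1 point per mouse, filled where the probe was detected, and a line at the mean of each chip. Chips 2, 9, 10 and 11 hold only mice in which *Glul* was not detected, and the single mouse of chip 6 has the highest value (7.73).

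Whether the astrocyte genes vary together from mouse to mouse was asked in 28 pairs, leaving out *Gfap*. Pearson's *r* was positive in 20 pairs and negative in 8, with a median of 0.14 and a range from -0.32 to 0.54. In 8 pairs the permutation p was under 0.05 before any adjustment, and 3 of these include *Slc1a2*, whose values lie mostly below detection and in whose own fit 0.0351% of all probes passed. In the limma fits of all probes on each member, 5 of 49 tests between members passed after Benjamini-Hochberg adjustment over all probes, all with positive slopes. That is 10.2%, against a median of 18.3% of all probes over the same fits. With the number of detected probes in the model 6 of 49 passed (12.2%), all with positive slopes, against a median of 5.1% of all probes. Without the 6 arrays below 7000 detected probes 8 of 49 passed (16.3%), 4 with positive and 4 with negative slopes, against a median of 11.03%. Against these medians the share of members called was lower without a covariate over all 37 arrays and higher in these other fits. The share of all probes differed widely between the fits behind a median. It ran from 0.0117% to 25.7% with the number of detected probes in the model and from 0% to 37.4% without the 6 arrays. Neither the 12.2% nor the 16.3% is therefore read as an excess. Without mouse 151 the share of members was 4.08% against a median of 14.1%, and with chip as a fixed block 0% against 8.41%. Most pairs were tested in both directions, so a pair can count in both.

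*Aldoc* and *Slc1a3*, aldolase C and GLAST, rose together in the main values. Their Pearson's *r* in the 37 mice was 0.50 (permutation p = 0.0015), with a Spearman's rho of 0.42 (permutation p = 0.011), and *r* was 0.58 without the 2 mice farthest from the median of *Aldoc*. In limma, *Slc1a3* passed in the fit on *Aldoc*, where 51.7% of all probes did, and *Aldoc* passed in the fit on *Slc1a3* (adjusted p = 0.023), where 27.3% did. Within set A *r* was 0.59, within set B 0.23 (permutation p = 0.49), and 0.53 with values centred within chips. Both genes rose with the number of detected probes. With that number in the model the slope of *Aldoc* on *Slc1a3* was 0.29 ± 0.19 (SE) and did not pass (adjusted p = 0.62), where 0.0234% of all probes did, nor did that of *Slc1a3* on *Aldoc* (adjusted p = 0.36), where 1.65% did. In the authors' normalized values *r* was 0.33 (permutation p = 0.047) and rho 0.26 (permutation p = 0.12). Neither test passed there (adjusted p = 0.092 for *Slc1a3* on *Aldoc* and 0.43 for *Aldoc* on *Slc1a3*), where 43% and 0% of all probes did. Without the 6 arrays below 7000 detected probes *r* was 0.45 (permutation p = 0.010) and rho 0.32 (permutation p = 0.080). Neither test passed (adjusted p = 0.32 and 0.35), where 0% of all probes did in both fits. The slopes were 0.49 and 0.42 against 0.43 and 0.59 over all arrays.

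*Glul* and *S100b* had the highest *r* of all 28 pairs, 0.54 (permutation p = 0.0006), with a Spearman's rho of 0.46 (permutation p = 0.0042). *Glul* passed in the fit on *S100b* (0.81 ± 0.20 per log2 unit, adjusted p = 0.025), where 3.15% of all probes did, and *S100b* passed in the fit on *Glul*, where 9.25% did. The pair held with the number of detected probes in the model (0.85 ± 0.20, adjusted p = 0.011, for *Glul* on *S100b*), where 6.56% of all probes passed on *S100b* and 25.7% on *Glul*. It leans on mouse 151, the highest in both. Without that mouse *r* was 0.42 (permutation p = 0.010) and neither test passed (adjusted p = 0.12 and 0.26). Of all probes 3.93% then passed on *Glul* and 0.0234% on *S100b*. With values centred within chips *r* was 0.28 (permutation p = 0.095). Within set A *r* was 0.49 and within set B 0.72.

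The connexin partners *Gja1* and *Gjb6* had an *r* of 0.40 (permutation p = 0.013) and a rho of 0.34 (permutation p = 0.039). In the limma fits without a covariate the pair did not pass (adjusted p = 0.23 for *Gjb6* on *Gja1*, where 0.246% of all probes passed, and 0.062 for *Gja1* on *Gjb6*, where 43.5% did). With the number of detected probes in the model both tests passed, with a slope of 0.87 ± 0.23 (SE) for *Gjb6* on *Gja1* (adjusted p = 0.017) and of 0.36 ± 0.11 for *Gja1* on *Gjb6* (adjusted p = 0.020). The background was then 13.5% and 16.3% of all probes. Given the number of detected probes, *r* was 0.56. It was 0.55 with values centred within chips, 0.26 within set A and 0.76 within set B. Without the 2 mice farthest from the median of *Gja1* it was 0.26 (permutation p = 0.13). These were mice 40 and 127, with the lowest *Gja1* (12.01 and 12.11), and mouse 127 also had the lowest *Gjb6* (10.28).

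**Figure D4:**
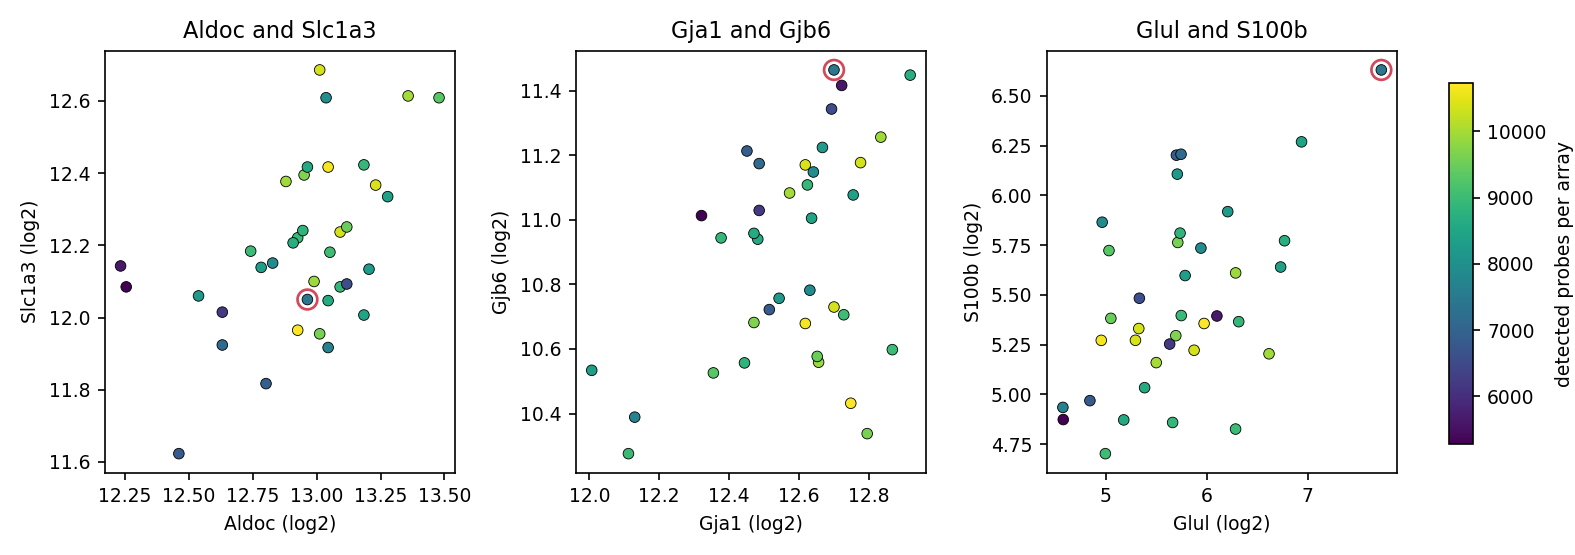
Expression (log2) of *Slc1a3* against *Aldoc*, *Gjb6* against *Gja1* and *S100b* against *Glul* in 37 mice, coloured by the number of detected probes on the array, with mouse 151 ringed in red. The *r* values are 0.50, 0.40 and 0.54. In the first panel the dark points (fewest detected probes) lie at low *Aldoc*, and in the third the ringed mouse lies far from the rest.

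*Glul* rose with both connexins in *r*, 0.39 with *Gjb6* (permutation p = 0.016) and 0.40 with *Gja1* (permutation p = 0.014). Only the first passed in limma, as *Glul* in the fit on *Gjb6* (0.81 ± 0.31, adjusted p = 0.032), and it did not without mouse 151 (adjusted p = 0.12). *Aqp4* had an *r* of -0.32 to *Gjb6*, -0.32 to *S100b* and -0.26 to *Glul*, none of them past the permutation test over all 37 mice (p = 0.058, 0.0503 and 0.12). Without the 2 mice farthest from the median of *Aqp4* these were -0.39, -0.47 and -0.42 and passed (permutation p = 0.021, 0.0049 and 0.012). In the authors' values *Gjb6* and *S100b* passed (permutation p = 0.037 and 0.029), and without the 6 arrays below 7000 detected probes *S100b* and *Glul* did (*r* of -0.46 and -0.47, permutation p = 0.0097 and 0.0073). For *S100b* Spearman's rho was -0.34 (permutation p = 0.040), and *r* was -0.75 within set B but -0.09 within set A. The *r* of *Aqp4* was 0.26 to *Aldoc* and 0.27 to *Gja1*, and 0.23 to *Gfap* within the 28 mice of the higher *Gfap* group. Within the 28 mice of the higher *Gfap* group, *Gfap* was related in the permutation test only to *S100b*, with an *r* of -0.51 (permutation p = 0.0057), -0.46 without the 2 mice farthest from the median of *Gfap*. In limma *S100b* did not pass there (adjusted p = 0.060), nor did any of the 7 members tested, where 4.65% of all probes did. The *r* of *Gfap* and *S100b* was -0.32 with values centred within chips (permutation p = 0.11) and -0.07 without quantile normalization.

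**Figure D5:**
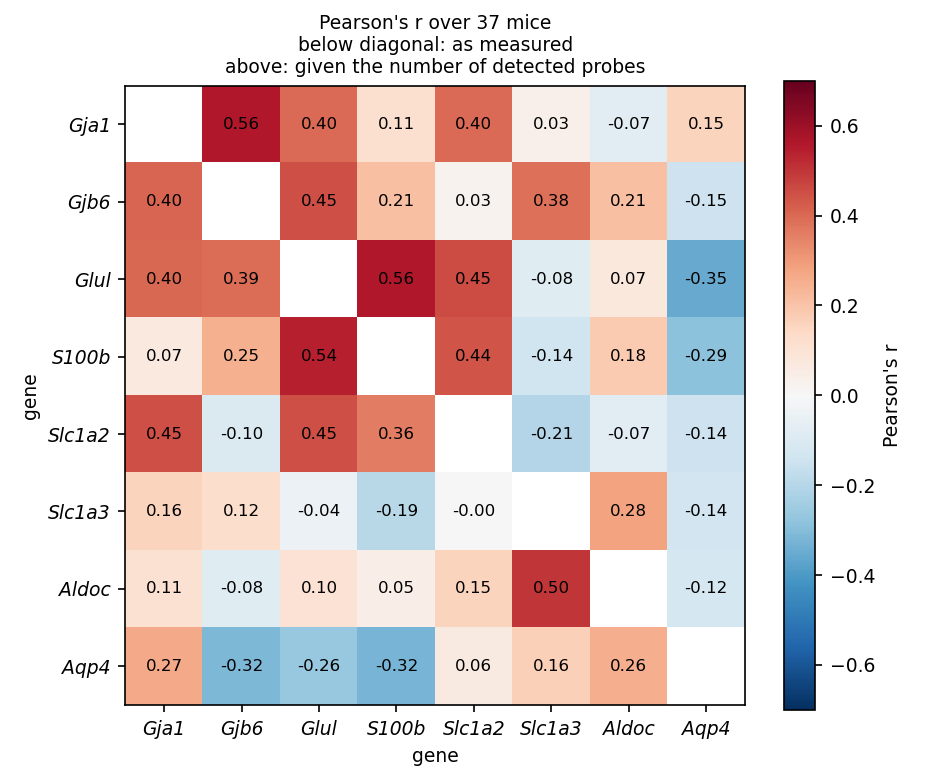
Pearson's *r* between 8 members over 37 mice, as measured (below the diagonal) and given the number of detected probes (above). *Glul* with *S100b* (0.54 and 0.56) changes little, *Gja1* with *Gjb6* goes from 0.40 to 0.56, and *Aldoc* with *Slc1a3* from 0.50 to 0.28.

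The 2 *Aldoc* probes differed in brightness and related only in part. Pearson's *r* between them was 0.43 (permutation p = 0.0082), Spearman's rho was 0.22 (permutation p = 0.19), and *r* was 0.06 without the 2 mice farthest from the median of the brighter probe. The dimmer probe ranged from 5.60 (median 6.52) to 6.97. It had no slope past the test on the number of detected probes (0.02 ± 0.04, adjusted p = 0.67), where the brighter probe had one.

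*Ly6a*, the cell surface gene that the study followed on chromosome 15, was compared with the members because the title of the series names it. Of 8540 probes, 56.8% changed with *Ly6a*, and of the 7 members tested without *Gfap* 3 did. *Aldoc* fell with *Ly6a*, with a slope of -0.13 ± 0.04 (SE, adjusted p = 0.0080), as did *Slc1a3* with -0.11 ± 0.04 (adjusted p = 0.017). *Gjb6* rose by 0.12 ± 0.05 (adjusted p = 0.0499). Without mouse 151 2 members passed, both falling, where 55.5% of all probes passed, so *Gjb6* did not pass there. *Ly6a* itself fell with the number of detected probes, with a slope of -0.48 ± 0.09 per 1000. With that number in the model 0.105% of all probes and 0 members passed (adjusted p = 0.69 for *Aldoc*, 0.49 for *Slc1a3* and 0.56 for *Gjb6*). Without the 6 arrays below 7000 detected probes 0 members passed, where 35.3% of all probes did. The slopes of *Slc1a3* (-0.09 ± 0.04, adjusted p = 0.12) and *Gjb6* (0.11 ± 0.06, adjusted p = 0.19) stayed near those over all arrays, and that of *Aldoc* was -0.04 ± 0.04 (adjusted p = 0.53). Within the 28 mice of the higher *Gfap* group, the slope of *Gfap* on *Ly6a* was -0.12 ± 0.14 (adjusted p = 0.71).

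Genes of the same pathways moved with single members. *Slc1a4*, a transporter of neutral amino acids from the same family as the glutamate transporters, rose with *Glul* (*r* of 0.78, slope 0.34 ± 0.05, adjusted p = 4.9e-05). It also rose without mouse 151 (0.38 ± 0.06, adjusted p = 9.2e-05) and with the number of detected probes in the model (adjusted p = 1.7e-05). With chip as a block it did not pass (0.25 ± 0.10, adjusted p = 0.78), where 0% of all probes did. It was the only 1 of 7 tested genes of the glutamate and glutamine cycle to rise with *Glul*. On *Glul* 9.25% of all probes passed, so 1 of 7 is near the background. Of the same 7, 1 rose with *Slc1a3*, *Glud1*, the glutamate dehydrogenase (*r* of 0.58, adjusted p = 0.013, and 0.46 with the number of detected probes in the model). On *Slc1a3* 27.3% of all probes passed, so 1 of 7 is no more than the background. Of 7 tested genes of glycolysis, 5 rose with *Aldoc*, where 30.1% of all probes rose, and 0 fell, *Pkm* (*r* of 0.63) and *Aldoa* (*r* of 0.51) among them, and 0 passed with the number of detected probes in the model. With *Gjb6* 0 of the 7 rose and 5 fell, and all 5 tested genes of intermediate filaments fell, where 22.8% of all probes fell. With the number of detected probes in the model 3 of the 7 and 3 of the 5 fell, where 7.88% of all probes did.

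Of the 5 tested genes of the dystrophin complex, which anchors *Aqp4* at the endfeet, 2 rose with *Aqp4* and 1 fell. Dystrophin itself (*Dmd*) rose (*r* of 0.62, adjusted p = 0.00056) and α-dystrobrevin (*Dtna*) fell (*r* of -0.56, adjusted p = 0.0020), against 42.7% of all probes that passed. None of the 5 passed with the number of detected probes in the model, where 3.64% of all probes did. *Synm*, encoding the filament protein synemin, rose with *Aqp4* in both models (0.86 ± 0.15, adjusted p = 0.0001, and 0.57 ± 0.15, adjusted p = 0.029). Of the 4 other connexins and pannexins tested, 0 moved with *Gja1*, where 0.246% of all probes did, and 0 with *Gjb6*, where 43.5% did. Of the 5 S100 genes tested, 0 moved with *S100b*, where 3.15% of all probes did, and of the 5 genes of other intermediate filaments, 0 moved with *Gfap* within its 28 mice, where 4.65% did.

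Of 20 other astrocyte markers tested, 7 rose and 3 fell with *Gjb6*, 8 rose and 5 fell with *Aldoc*, 5 rose and 2 fell with *Slc1a3*, 2 rose and 2 fell with *Aqp4*, and 2 rose and 0 fell with *Glul*. Of all probes, 43.5% passed with *Gjb6*, 51.7% with *Aldoc*, 27.3% with *Slc1a3*, 42.7% with *Aqp4* and 9.25% with *Glul*. None of the 20 passed with *Gja1* or *S100b*, where 0.246% and 3.15% of all probes did. The median slope of the list on *Gjb6* was 0.02, against -0.03 over all probes. With the number of detected probes in the model 3 rose and 0 fell with *Gjb6* (16.3% of all probes passed), 1 rose and 0 fell with *Aldoc* (1.65%), and 0 passed with *Slc1a3* (0.0234%) or *Aqp4* (3.64%).

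Markers of other cell types moved with *Gjb6*, and some also with other members. Of 9 tested markers of oligodendrocytes and myelin, 0 rose and 5 fell with *Gjb6*, where 22.8% of all probes fell, and the median slope of the list was -0.56. *Mbp*, myelin basic protein, was among the 3 genes with the lowest *r* to *Gjb6* on the whole array, at -0.73 over 37 mice (slope -1.43 ± 0.22, adjusted p = 0.00021). *Mag* had an *r* of -0.53 and *Mobp* of -0.42. With the number of detected probes in the model 5 again fell, where 7.88% of all probes did, with a slope for *Mbp* of -1.02 ± 0.17 (adjusted p = 0.00048). With chip as a block 3 fell, *Mbp* among them (adjusted p = 0.0069), where 1401 of 8540 probes fell. Within set A 4 fell, where 1794 of 8540 probes did. Within set B 0 fell, where 0 of 8540 probes passed in either direction. The *Mbp* slope within set B was -0.56 ± 0.33 (adjusted p = 0.74). Without quantile normalization the direction turned: 8 of the 9 rose with *Gjb6*, as did most probes (91.9% passed), with a slope for *Mbp* of 0.54 ± 0.20, below the median slope of 0.73 over all probes. Of 8 tested markers of microglia, 6 rose and 1 fell with *Gjb6*, where 43.5% of all probes passed. The complement genes *C1qa* (slope 1.37, adjusted p = 0.0030), *C1qb* (adjusted p = 0.015) and *C1qc* (adjusted p = 0.013) rose, and the chemokine receptor gene *Cx3cr1* fell (slope -1.97, adjusted p = 0.0021). Of 6 tested markers of endothelial cells, 3 rose and 1 fell, with *Ly6c1* (slope 0.94, adjusted p = 0.0021) and *Cldn5*, which encodes the tight junction protein claudin 5 (slope 0.59, adjusted p = 0.021), rising. With the number of detected probes in the model 2 microglial markers rose and 1 fell, and 1 endothelial marker rose, where 16.3% of all probes passed. *Mbp* and *C1qa* went the other way with other members. *Mbp* rose with *Aldoc* (slope 1.28, adjusted p = 0.0015) and *Aqp4* (0.51, adjusted p = 0.0083). Of the other named myelin genes *Cldn11* fell with *Aldoc* (-0.44, adjusted p = 0.042), and *Mag* and *Mobp* passed with neither. *C1qa* fell with *Aldoc* (-1.45, adjusted p = 0.0075), *Aqp4* (-0.67, adjusted p = 0.0091) and *Slc1a3* (-1.6, adjusted p = 0.029). *Cx3cr1* rose with each of these members (2.72, 0.96 and 2.67, adjusted p = 0.00022, 0.0064 and 0.015), and *C1qb* and *C1qc* passed with none. Of all probes 51.7% passed on *Aldoc*, 42.7% on *Aqp4* and 27.3% on *Slc1a3*. None of these slopes passed with the number of detected probes in the model, where *Mbp* fell with *Glul* (adjusted p = 0.046). The part of these cell types in the *Gjb6* values was not tested.

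The genes most like each member over the 37 mice were not among the members or the other astrocyte markers tested here. Their cell types were not examined. For *Glul* they were *Lancl1*, *Vps26b*, *Nsg1*, *Hcfc1* and *Idh2* (*r* of 0.80 to 0.82), and for *S100b* *Taf13*, *Mrpl13*, *Swi5*, *Alyref2* and *Bcas2* (*r* of 0.66 to 0.68). *Esyt2* was among the 3 lowest for both, with an *r* of -0.69 to *Glul* and -0.74 to *S100b*. For *Aqp4* they were *Tgs1*, *Zfp292*, *Hook3*, *Atxn1* and *Nxph1* (*r* of 0.83 to 0.87, and 0.75 to 0.82 given the number of detected probes). For *Gjb6* they were *Rbm12*, *Ube2d2a*, *Tfcp2l1*, *Ece2* and *Fahd1* (*r* of 0.74 to 0.80), with *Arhgap23*, *Fa2h* and *Mbp* the lowest.

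The other members had looser or shared company. For *Gja1* the nearest genes were *Gpr85*, *Arxes2*, *Ets2*, *Dner* and *Ppp1r2* (*r* of 0.63 to 0.69). For *Slc1a3* they were *Farp1*, *Lamb3*, *Ccdc86*, *Gstz1* and *Pnpla7* (*r* of 0.66 to 0.71). For *Aldoc* they were *Mmab*, *Selenbp1* (by 2 probes), *Clptm1l* and *Arfip2* (*r* of 0.77 to 0.83), which themselves had an *r* of 0.46 to 0.76 to the number of detected probes. Within the 28 mice of the higher *Gfap* group, the nearest to *Gfap* were *Eef1a2*, *Eef2*, *Plpp3*, *Cabp7* and *Gabbr1* (*r* of 0.76 to 0.82), and *Ppp1r12a* was the lowest (-0.85). Translation elongation factors are encoded by *Eef1a2* and *Eef2*, and *Plpp3* encodes a lipid phosphate phosphatase. For *Slc1a2*, mostly below detection, *Dixdc1* came nearest (*r* of 0.65).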

How the data were processed

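Hippocampal RNA of 37 mice was measured with 1 Illumina array per mouse. The authors took intensity values from BeadStudio with its background correction, and deposited them on a linear scale with no normalization between arrays. The deposited detection score of each probe was turned into a detection p-value as 1 minus the score. The deposited log2 values, made by the authors with a variance stabilizing transformation and robust spline normalization (lumi), served as an alternative. The intensity table carries no platform identifier, so its probes were matched to the deposited log2 values by their ranks within the arrays (24613 of 24620 probes), and 20984 had 1 gene symbol in the platform annotation. *Ly6a* was named through the probe number in the study's supplementary table.

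Values were made in R 4.3.3 with limma 3.58.1: nec with an offset of 16 and the detection p-values, then log2, then quantile normalization. Probes detected at p under 0.01 on at least 19 arrays were tested with lmFit and eBayes, Benjamini-Hochberg adjusted over all probes of a fit, against chip, chip set, the number of detected probes, each member and *Ly6a*. Where a gene has several probes, the one with the highest mean signal was used. Correlations used 100000 two-sided permutations. Permuting chip-centred values freely over mice makes their p-values too small. The fits, the mixture rule and the permutation test were tested on simulated data. The precision is limited by the number of arrays and, for *Glul*, *S100b*, *Gfap* and *Slc1a2*, by signal near background. Alternatives were the authors' log2 values, no quantile normalization, another offset, other detection limits, the number of detected probes or the chip as a term, each chip set and left out arrays.

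Named are the members, the 5 probes with the highest and the 3 with the lowest *r* to each, up to 4 genes of each list by mean signal, and *Ly6a*. *Synm*, *Slc1a4* and *Mbp* were picked from these for their values. The members and lists were chosen with earlier results of these data known. Neither genotypes nor behavior of the mice entered any test.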

Additional observations from a re-analysis of the deposited data

How the results depend on the processing

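The number of arrays and the low signal of *Glul*, *S100b*, *Gfap* and *Slc1a2* set the limits. Chosen after seeing the data were the fits without the arrays under 7000 detected probes, those without mouse 151 and those within the 28 mice of the higher *Gfap* group. The cause of the changes that follow was not tested, except that stricter detection limits and subsets test fewer probes or mice. No paired analysis was possible because the mice form 1 group and no mouse number occurs more than once. Of the 10 probes, 5 were detected on all 37 arrays.

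Probes that differed between chips numbered 154 without quantile normalization, 461 among probes detected on at least 1 array, 20 among those detected on all 37, 459 with the number of detected probes as a term, 157 without the low arrays and 19 without mouse 151, against 72. *Glul* was called in these except among probes detected on all 37 arrays (0 members) and without mouse 151 (0 members). Slopes on the number of detected probes passed for 8821 probes at a detection limit of 1 array, 2907 at 37 arrays and 2232 within set B, against 5724, with 1 member instead of 4 within set B and 1 without the low arrays. The *Gjb6* slope turned to 0.25 without quantile normalization and to 0.029 within set B.

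Of 49 tests between members 5 passed in the main fits (10.2%, against a median of 18.3% of all probes). Without quantile normalization 36 passed (73.5% against 91.4%), and among probes detected on all 37 arrays 2 of 35 (5.71% against 18%). With chip as a fixed block 0 passed (0% against 8.41%), within set A 3 (6.12% against 6.0%) and within set B 1 (2.04% against 0%). Without the low arrays 8 passed (16.3% against 11.03%) and without mouse 151 2 (4.08% against 14.1%). Pairs with a permutation p under 0.05 numbered 22 without quantile normalization, 5 within set A, 4 within set B and 3 with values centred within chips, against 8. *Ly6a* had 335 associated probes without quantile normalization, 2580 among those detected on all 37 arrays, 9 with the number of detected probes as a term, 2580 with chip as a block, 0 within set B and 3012 without the low arrays, against 4848. Of the members 0 passed with *Ly6a* without quantile normalization, with the number of detected probes, with chip as a block, within set B and without the low arrays. Slopes on *Ly6a* turned to 0.043 for *Aldoc* and 0.036 for *Slc1a3* without quantile normalization and to 0.020 for *Aldoc* within set B. The groups of *Gfap* were 0 without quantile normalization, with the authors' values and without the low arrays. Over 17 single slopes and 190 alternative values, 126 kept side and sign, 48 no longer passed, 11 came to pass and 5 changed sign.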
